A study of Mus musculus with 4 samples.

Results

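Phox2a, Tlx2, Hand2, Tbx3, Tbx2, Insm1, Gata3 and Isl1 are 8 transcription factor genes of enteric and autonomic neurons. They were taken by symbol, 1 row per Entrez identifier, from a table of 27178 genes, of which 14589 had a read, and all 8 were found. RNA came from neural crest-derived gut cells of mouse embryos at 11.5 days post coitum, all Wnt1-tdT, sorted by the red reporter that all the animals carried; the name ties it to Wnt1, a gene of the dorsal neural tube, and the labels describe the alleles no further. The 2 groups, of 2 libraries each, were cells at the wavefront, the leading edge of the crest cells that colonise the gut, and trailing cells lying 1 to 1.5 mm behind it. Whether the replicates were separate embryos, or pools of them, is not stated, so the p-values cover the scatter among these libraries and that may be technical.

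Crest cells enter the foregut, move towards the anus, divide, and become enteric neurons and glia along the way. Phox2a is a paired-like homeodomain protein of autonomic neurons. Hand2, Gata3, Insm1 and Isl1 are known from sympathetic neurons, where they act in a network with Phox2a to turn on noradrenergic and pan-neuronal genes. Hand2 is also needed for the terminal differentiation of enteric neurons, and mice without Tlx2 have an abnormal enteric nervous system. Tbx2 and Tbx3 are T-box repressors expressed in many embryonic tissues.

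Tlx2, Phox2a and Isl1 share the homeodomain fold, so the codons of the helix that reads DNA are shown to let the reader see how far the genes differ where they are most alike. Each run is 30 bases of the mature transcript (GENCODE M21, GRCm38), and capitals mark the first 4 codons, an unbroken stretch that encodes the same amino acids in all 3 proteins.
Phox2a (chr7:101821711-101821740, plus strand): TGGTTCCAGAACcgccgggccaagttccgc
Tlx2 (chr6:83068974-83069082, minus strand, with an intron inside the span): TGGTTCCAGAACcgacgcaccaagtggcgg
Isl1 (chr13:116303100-116303129, minus strand): TGGTTTCAAAACaagcggtgcaaggacaag
Phox2a and Tlx2 were identical at 24 of the 30 bases, Phox2a and Isl1 at 18, and Tlx2 and Isl1 at 17. For the T-box pair, the longest exact run shared by their whole coding sequences was 14 bases, lying at chr11:85833431-85833444 in Tbx2 and chr5:119672334-119672347 in Tbx3, both on the plus strand.
Tbx2 and Tbx3: ctggaggccaagga
Of all stretches of 50 bases in their annotated transcripts, Phox2a, Tlx2, Hand2, Tbx3, Tbx2 and Isl1 had 0% in common with the transcripts of any other gene. Gata3 had 0.731%, all with 9230102O04Rik, which had 0 reads, and Insm1 had 0.754%, with many other genes.

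The genes lie at separate loci (GENCODE M21, GRCm38). Tlx2 spans 83068324 to 83070293 on chromosome 6 and Tbx3 119670669 to 119684724 on chromosome 5. Tbx2 spans 85832551 to 85841948 on chromosome 11, Hand2 57320983 to 57324633 on chromosome 8 and Gata3 9857078 to 9890034 on chromosome 2. Insm1 is also on chromosome 2, from 146221921 to 146225020, with Isl1 on chromosome 13 from 116298281 to 116309689 and Phox2a on chromosome 7 from 101818313 to 101822726. The counting settings, strand among them, are not given, so reads of a gene and its antisense partner may not have been told apart. Tbx3 overlaps the antisense Tbx3os1 by 697 bases, with 1 read in all. Phox2a overlaps Inppl1, on the other strand and with 86 reads in all, by 95 bases. Hand2 overlaps Hand2os1 by 3251 bases and Gata3 overlaps the antisense Gm13256 by 1614 bases; neither partner was analysed here.

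The libraries were shallow, with 114972 reads outside ribosomal RNA in wavefront replicate 2 and 330644 to 452144 in the other 3. Ribosomal RNA took 55.5% of the reads of that library and 15.6 to 26.1% of the rest. All 7 markers of enteric crest progenitors described here had reads in 3 libraries, and 6 of the 7 in wavefront replicate 2, Sox10, Ret and Ednrb among them. The 8 transcription factor genes took 940 reads in all, 328 and 281 from trailing cells and 302 and 29 at the wavefront, and Tbx3 gave 715 of them (76.1%).

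Of the 8 genes, Tlx2 fell at the wavefront in the count test, Tbx3 and Tbx2 did not pass, and 5 had too few reads to enter it. Counts were tested over 5759 genes with the quasi-likelihood test of edgeR, on whole reads worked back from the deposited CPM, with Benjamini-Hochberg adjustment and a threshold of 0.05. Over all genes tested, 1.74% were called, 1.34% lower and 0.399% higher at the wavefront. The test of log2(CPM + 1) with limma took in 7 of the 8 genes and called 0. In limma 0% of 12519 genes were called. Of those 12519 genes, 6.85% (858 genes) had an unadjusted limma p under 0.05, and 5.78% (724 genes) had one and were lower at the wavefront. Of the 7 genes, 2 had an unadjusted limma p under 0.05, Tlx2 and Gata3, both lower. The 7 log2 fold changes were below 0 in limma, as were those of 70.8% of all genes, whose median was -0.35. In edgeR the log2 fold changes of the 3 tested were below 0, as were 49.4% of all. Fewer cells of a type and less RNA per cell cannot be told apart in such bulk libraries.

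Tlx2, a homeobox gene expressed in differentiating enteric ganglia, had the clearest difference. Its reads numbered 54 and 47 in trailing cells and 10 and 0 at the wavefront, replicate 1 before 2 here and throughout. Scaled CPM are CPM on library sizes adjusted by edgeR's TMM factors, and on that scale the values were 102 and 98.5 in trailing cells and 16.8 and 0 at the wavefront. Both trailing libraries lay above both wavefront libraries, and the trailing values differed little from each other. Tlx2 fell by 2.95 ± 0.46 on the log2 scale (SE, 95% interval -3.87 to -2.03; edgeR adjusted p = 2.36e-05), against a median of 0.01 over all genes tested. In limma the log2 fold change was -4.58 ± 1.29 (adjusted p = 0.68). At the trailing rate the wavefront libraries would hold 59.8 and 17.2 reads of it. The count of 0 in wavefront replicate 2 allows up to 21.6 scaled CPM (95% exact Poisson limit, counting error only).

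Tlx2 was called without either wavefront library. Without wavefront replicate 2 the change was -2.51 (edgeR adjusted p = 2.69e-05), and without wavefront replicate 1, where a library at 0 was the whole wavefront group, the edgeR adjusted p was 0.000165. The call was lost in DESeq2 on the same reads (log2 fold change -3.12, adjusted p = 0.0783). In the authors' deposited table, whose p-values were adjusted here, Tlx2 had a log2 fold change of -1.72 and an adjusted p of 0.171. That adjustment ran over 14589 genes, and that of DESeq2 over 3841. The fold changes may also be on unlike scales, since Dbh was at -3.45 in the deposited table and at -4.59 in DESeq2. It was also lost when libraries were scaled by the summed reads of Ret and Ednrb (-3.54, edgeR adjusted p = 0.204), a scaling under which 4 genes in all were called. Over 12 alternatives to the count test Tlx2 passed in 9.

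**Figure D1:**
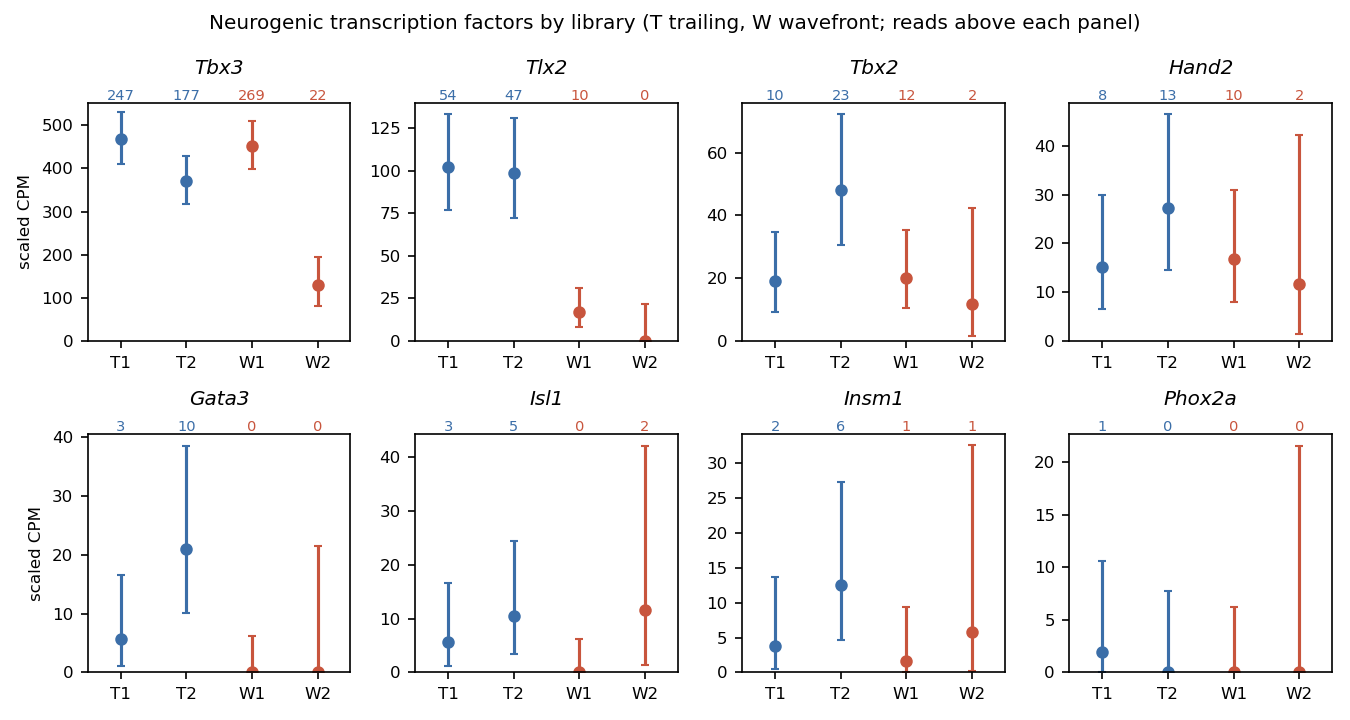
Each panel plots scaled CPM (y axis) of 1 gene in trailing replicates 1 and 2 (T1, T2, blue) and wavefront replicates 1 and 2 (W1, W2, red), with 95% exact Poisson intervals as bars and the reads printed above. Tlx2 and Gata3 are the 2 panels in which both blue points lie above both red ones; Tbx3 is low in W2 only.

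Tbx3 was the most abundant of the 8, with more reads than 98.4% of the genes detected. Its reads were 247 and 177 in trailing cells and 269 and 22 at the wavefront, or 468 and 371 scaled CPM against 452 and 129. Wavefront replicate 1 lay between the trailing libraries and wavefront replicate 2 stood below all 3, so the groups overlapped. The log2 fold change was -0.44 ± 0.36 (edgeR adjusted p = 0.783), with a 95% interval of -1.16 to 0.28, which holds falls down to its lower bound and small rises. The sign depended on the shallow library: without wavefront replicate 2 the change was 0.16 (edgeR adjusted p = 0.925), and without wavefront replicate 1 it was -1.70 (adjusted p = 0.0374).

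Tbx2, the paralogue of Tbx3, was far less abundant. It had 10 and 23 reads in trailing cells and 12 and 2 at the wavefront, which gave 18.9 and 48.2 scaled CPM against 20.2 and 11.7. Trailing replicate 2 was the high library, and trailing replicate 1 lay just below wavefront replicate 1. The log2 fold change was -0.87 ± 0.55 (95% interval -1.98 to 0.23, edgeR adjusted p = 0.664). Per 100 reads of Tbx3 in the same library there were 4.05 and 13.0 reads of Tbx2 in trailing cells and 4.46 and 9.09 at the wavefront, so the balance of the paralogues varied as much within groups as between them.

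Hand2, a basic helix-loop-helix factor of sympathetic and enteric neurons and of gut mesenchyme, had 8 and 13 trailing reads against 10 and 2. On the scaled CPM scale these were 15.2 and 27.2 against 16.8 and 11.7, and the groups overlapped. The pooled trailing to wavefront ratio of scaled reads was 1.33, with a 95% exact binomial interval from 0.627 to 2.98 that covers counting error only. In limma the log2 fold change was -0.77 ± 0.66 (adjusted p = 0.786).

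Gata3, a zinc finger factor that in sympathetic neurons keeps up the noradrenergic genes, was read in trailing cells only, at the limit of the depth. It had 3 and 10 trailing reads and 0 and 0 at the wavefront. At the trailing rate the wavefront libraries would hold 7.70 and 2.21. The wavefront to trailing ratio of pooled scaled reads was 0, with a 95% exact binomial interval that reaches 0.430 and covers counting error only, and trailing replicate 2 gave 10 of the 13 reads behind it. Limma gave -3.65 ± 0.92 on the log2(CPM + 1) scale (limma adjusted p = 0.68). With Tlx2 it made 2 of the 8 genes whose trailing libraries both lay above both wavefront libraries, as 19.9% of the genes with a read also had, and 20.9% of those tested by edgeR; counting either direction the shares were 32.4% and 39.1%.

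Isl1 and Insm1 were read too seldom to place. Isl1, a LIM-homeodomain factor of sympathetic, sensory and motor neurons, had 3 and 5 trailing reads against 0 and 2. Insm1, a zinc finger repressor of neuroendocrine and newborn neuronal cells, had 2 and 6 against 1 and 1. Both gave a pooled trailing to wavefront ratio of 3.05 (95% exact binomial interval 0.609 to 29.5), and both had overlapping groups. Limma gave -1.62 ± 1.17 for Isl1 and -1.17 ± 0.88 for Insm1 (adjusted p = 0.786 for each).

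Phox2a, a homeodomain factor of noradrenergic and other autonomic neurons, had a single read, in trailing replicate 1, which allows no comparison of the groups. In the library with most reads, wavefront replicate 1, its count of 0 allows up to 6.20 scaled CPM (95% exact Poisson limit).

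**Figure D2:**
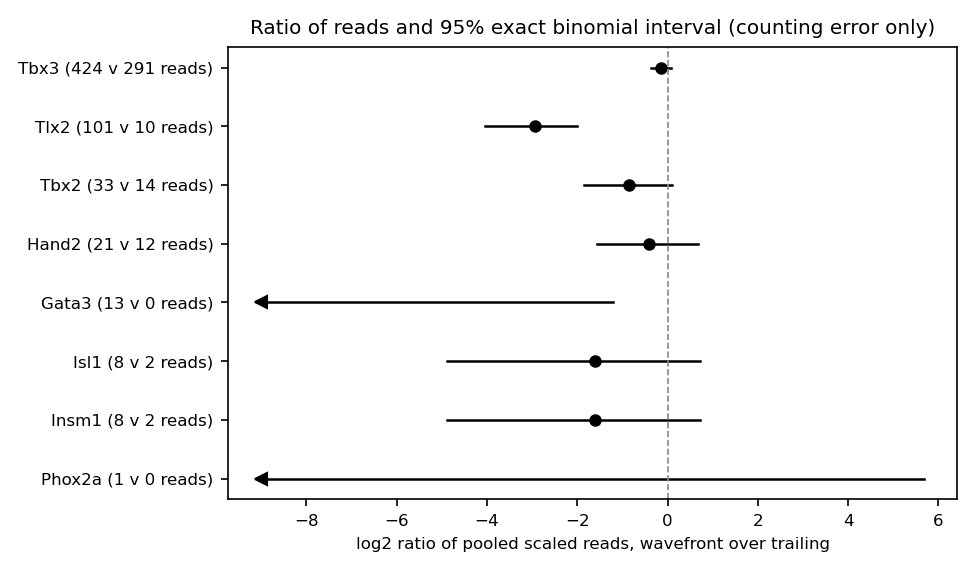
The x axis is the log2 ratio of pooled scaled reads, wavefront over trailing, with 95% exact binomial intervals as lines, for the 8 genes listed with their trailing and wavefront reads; arrows mark intervals that run on past the axis. The intervals of Tlx2 and Gata3 lie wholly below 0 and the other 6 reach it, and all cover counting error only.

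Per kilobase of annotated exon, which allows levels to be compared between genes, Tlx2 and Tbx3 were level in trailing cells at 63.5 ± 1.68 and 63.3 ± 10.3 scaled CPM per kb (SD, n = 2). Tbx2 and Hand2 followed at 9.26 ± 5.71 and 9.02 ± 3.64, and Gata3, Insm1, Isl1 and Phox2a came last at 3.35 ± 2.72, 2.64 ± 2.004, 2.04 ± 0.86 and 0.465 ± 0.66. The libraries of Tlx2 and Tbx3 overlapped, as did those of Tbx2 and Hand2 and those of Gata3, Insm1 and Isl1. Both libraries of Isl1, at 1.44 and 2.65, lay above those of Phox2a, at 0.931 and 0, where 1 read makes up the difference from 0. The lower library of Hand2, at 6.44, lay above the higher one of Gata3, at 5.27, but their means differed by less than their summed SDs. At the wavefront Tbx3 stood at 43.8 ± 34.5, and Hand2, Tlx2 and Tbx2 at 6.06 ± 1.54, 5.31 ± 7.51 and 4.39 ± 1.65. Tlx2 thus stood beside Tbx3 in trailing cells, and its mean stood beside those of Hand2 and Tbx2 at the wavefront. In wavefront replicate 1 Tlx2, at 10.6, was above Hand2 at 7.14 and Tbx2 at 5.56. In the shallow wavefront replicate 2 it was at 0, below Hand2 at 4.97 and Tbx2 at 3.22. Isl1 and Insm1 were at 1.48 ± 2.09 and 1.21 ± 0.95 there, within each other's spread.

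Levels relative to Ret, the GDNF receptor of enteric crest cells, do not depend on the scaling of libraries, since both counts come from the same one. Ret itself did not pass (0.25 ± 0.41, edgeR adjusted p = 0.908). Per 100 reads of Ret, trailing cells had 6.25 and 8.62 of Tlx2. Wavefront replicate 1 had 0.708 (95% exact binomial interval 0.339 to 1.31). Wavefront replicate 2 had 0 against 155 reads of Ret, which allows up to 2.41 by the same kind of interval. The trailing values were thus above those of both wavefront libraries. Tbx3 gave 28.6 and 32.5 reads per 100 of Ret in trailing cells and 19.0 and 14.2 at the wavefront. On this base both trailing libraries of Tbx3 lay above both wavefront ones, whereas on the scaled CPM scale its groups overlapped. Ret stood at 1636 and 1142 scaled CPM in trailing cells and 2373 and 906 at the wavefront. How far Ret itself set the separation of Tlx2 or Tbx3 on this base was not tested. The share of all genes that separate on this base was not worked out. Hand2 gave 0.926 and 2.39 against 0.708 and 1.29, and Tbx2 gave 1.16 and 4.22 against 0.849 and 1.29, with overlap in each case.

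**Figure D3:**
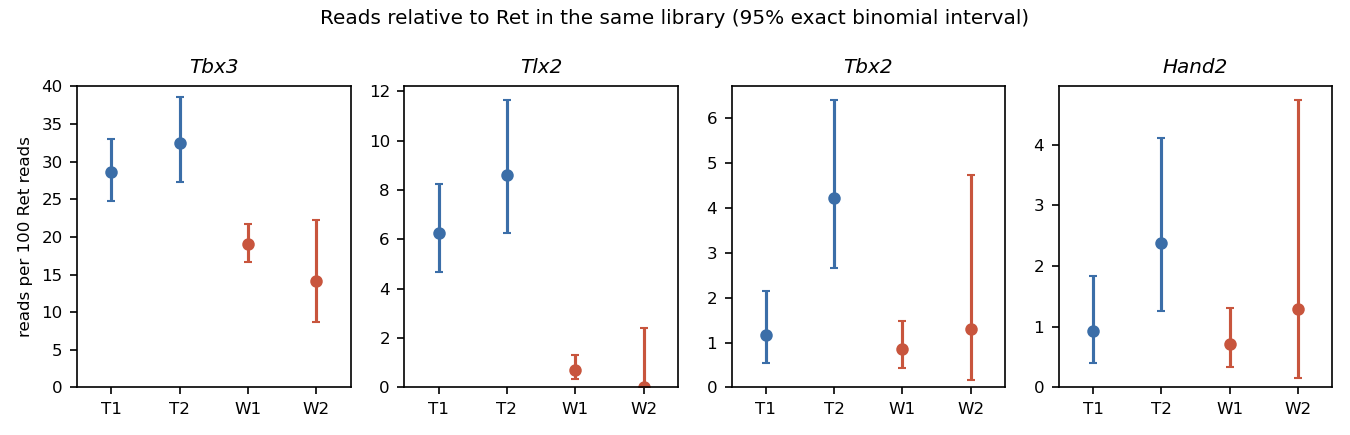
The y axis is reads of each gene per 100 reads of Ret in the same library, with 95% exact binomial intervals, for trailing (T1, T2, blue) and wavefront (W1, W2, red) replicates. Tlx2 goes from 6.25 and 8.62 to 0.708 and 0 and Tbx3 from 28.6 and 32.5 to 19.0 and 14.2, while the points of Tbx2 and Hand2 overlap between groups.

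Against Tubb3, a tubulin of newborn neurons that itself changed by -1.82 ± 0.37 (edgeR adjusted p = 0.00178), Tlx2 had 6.90 and 7.04 reads per 100 in trailing cells and 3.76 and 0 at the wavefront. The 95% exact binomial interval for the former was 1.78 to 7.02, and that for the latter reached 6.13. In wavefront replicate 1 the interval reached the lower trailing value, which it did not when Ret was the base.

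Among tested genes of at least median abundance, the 3 whose log2(scaled CPM + 1) profile over the 4 libraries was nearest to that of Tlx2 were Chrnb4, Th and Dbh. Their root mean square distances were 0.614, 0.665 and 1.36 after each profile was centred on its mean, out of 2879 candidates. Chrnb4, a nicotinic receptor subunit of autonomic ganglia, had 68 and 43 trailing reads against 28 and 0. Th and Dbh, the enzymes that make dopa and noradrenaline, had 46 and 50 against 3 and 0, and 271 and 237 against 13 and 3. Each was low in both wavefront libraries, and Chrnb4 and Th shared with Tlx2 the 0 in wavefront replicate 2. Over 4 libraries such likeness is a description only.

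Several genes known as targets of Phox2 factors, Hand2, Gata3, Isl1 or Insm1 fell at the wavefront. Of 20 listed, 11 were tested in edgeR, 7 fell, 0 rose and 4 did not pass, with a median log2 fold change of -1.46 against 0.01 over all genes; limma called 0 of 14, with 9 at an unadjusted p under 0.05. Dbh fell by 4.59 ± 0.42 on the log2 scale (edgeR adjusted p = 7.58e-11) and Stmn2, a microtubule regulator of growing axons, fell by 3.30 ± 0.40. Th fell as well (edgeR adjusted p = 2.8e-07), on the reads given above. Elavl3, a neuronal RNA-binding protein, fell by 2.43 ± 0.52 on 58 trailing and 8 wavefront reads. The nicotinic subunits Chrnb4 and Chrna3 fell by 1.68 ± 0.41 and 1.46 ± 0.33, and Cdkn1c, an inhibitor of the cell cycle, fell by 1.23 ± 0.34. Elavl3 and Stmn2 also stand in the list of enteric neuron markers described further on, and Th and Dbh in that of sympathetic cells. Under the alternatives Dbh passed in 12 of 12, Th and Stmn2 in 11 of 12, Elavl3 in 7 of 11, Chrnb4 and Chrna3 in 5 of 12 each and Cdkn1c in 0 of 12.

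The targets that did not pass were Ret, Gap43, Elavl4 and Slc18a2. Gap43, a growth cone protein, was at -0.39 ± 0.33 (edgeR adjusted p = 0.795), and Ret is given above. Elavl4, an RNA-binding protein like Elavl3, was at -1.001 ± 0.32 (0.119) in the same test. Slc18a2, the vesicular monoamine transporter, was at -0.57 ± 0.43 (0.744), with 21 and 25 trailing reads against 20 and 4. Of the noradrenergic genes listed, Dbh and Th thus passed while Slc18a2 did not; the difference between them was not tested.

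Other neurogenic factors did not pass. Of 30 listed, 21 had a read, and 9 were tested in edgeR with 0 called, 1 at an unadjusted p under 0.05 and a median log2 fold change of -0.34, which ran from -0.80 without wavefront replicate 2 to 0.35 without wavefront replicate 1. Limma called 0 of 20, with 3 at an unadjusted p under 0.05, and DESeq2 called 0. Sox11, a factor of newborn neurons and their precursors, had 435 and 400 reads in trailing cells and 1117 and 71 at the wavefront, a change of 0.49 ± 0.42 (edgeR adjusted p = 0.798). Without wavefront replicate 2 Sox11 passed, at 1.23 ± 0.35 (edgeR adjusted p = 0.027), and with that library in it did not. Zeb2, a zinc finger factor whose loss impairs enteric crest cells, was at 0.61 ± 0.31 (0.524), and both its wavefront libraries lay above both trailing ones. Meis1, a TALE homeodomain factor, had 64 and 61 trailing reads against 41 and 19 and was at -0.59 ± 0.33 (edgeR adjusted p = 0.59). Its libraries separated the other way, at 121 and 128 scaled CPM in trailing cells against 68.9 and 111. Sox10, the gene at an unadjusted p under 0.05, was at -1.02 ± 0.45 (edgeR adjusted p = 0.418) and was also lower in both wavefront libraries. Of all genes tested by edgeR, 39.1% separated in either direction.

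**Figure D4:**
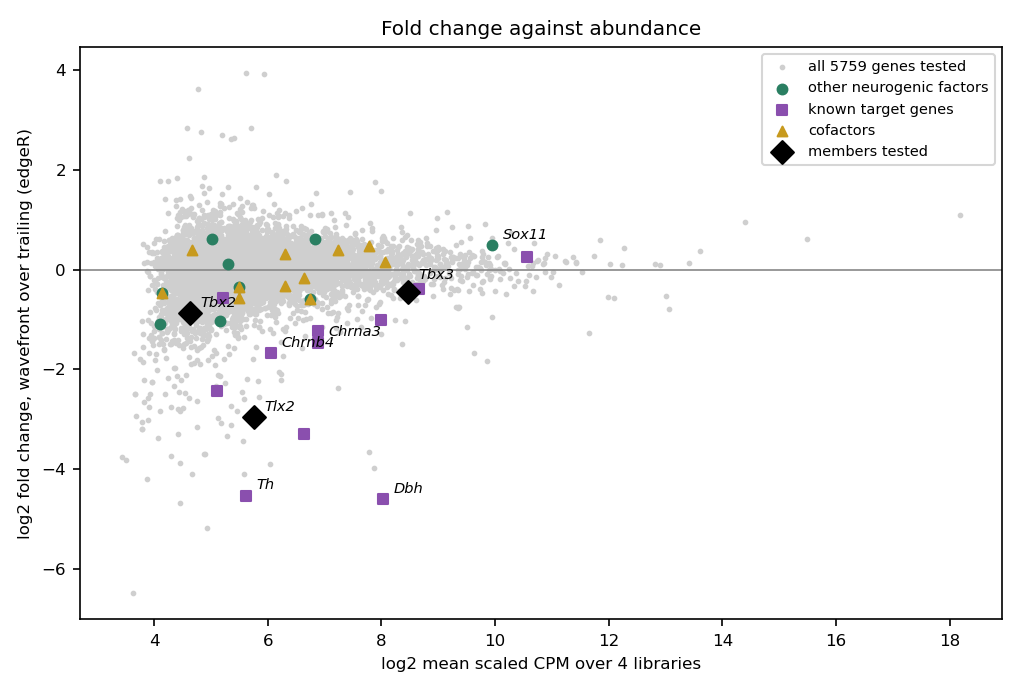
The x axis is log2 mean scaled CPM over the 4 libraries and the y axis the log2 fold change, wavefront over trailing, from edgeR, for all 5759 genes tested (grey) with the 3 tested members (black diamonds), other neurogenic factors (green), known targets (purple) and cofactors (gold). Tlx2 lies at -2.95 among the lower targets, whereas Tbx3 lies at -0.44.

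Paralogues of the 8 genes were mostly at 0. Of 35 further members of the T-box, GATA, LIM-homeodomain, TLX, HAND and INSM families, 28 had no read in any library, 34 had under 10 and 1, Mga, was tested; edgeR called 0, with 0 at an unadjusted p under 0.05, limma called 0 of 4, with 1 at an unadjusted p under 0.05, and DESeq2 called 0. Tlx1 and Tlx3, the other TLX genes, were at 0, so Tlx2 was the sole TLX gene read. Hand1, the paralogue of Hand2, had 0 and 0 trailing reads and 1 and 3 at the wavefront. Mga, a T-box and MAX-partner protein, was level, at -0.04 ± 0.34 (edgeR adjusted p = 0.985).

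Most of the listed cofactors through which these factors act were read in both groups. Of 20 listed, 17 had a read and 11 were tested in edgeR, with 0 called, 0 at an unadjusted p under 0.05 and a median log2 fold change of -0.18; limma called 0 of 17, with 0 at an unadjusted p under 0.05, and DESeq2 called 0. Tcf4 and Tcf12, partners of basic helix-loop-helix factors such as Hand2, were at 0.15 ± 0.32 and 0.40 ± 0.31. Lmo4, a LIM-only protein that competes for the partner of Isl1, was at 0.46 ± 0.32 (edgeR adjusted p = 0.705).

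Markers of neurons and of other cell types moved between the groups. With ribosomal RNA left out of the total, the 11 enteric neuron markers in the table came to 4406 and 4993 CPM in trailing cells and 1588 and 1444 at the wavefront, and 8 of 10 tested fell. Gut mesenchyme, which expresses Hand2 and Tbx3, was listed by 24 markers, of which 11 and 11 were detected in trailing cells and 9 and 18 at the wavefront. On the same scale, trailing cells had 259 and 254 CPM of them in sum and wavefront cells 529 and 1635. Of 3 tested, Col3a1 and Des rose. Of the 24, 6 were at 0 in all libraries, Barx1, Twist1 and Myh11 among them, and Foxf1 had 0, 0, 0 and 2 reads. Several other markers of few reads had most of them in wavefront replicate 2. Pdgfra had 1 and 1 trailing reads against 2 and 10, Col1a1 0 and 2 against 2 and 10, and Acta2 1 and 1 against 0 and 10. Gli1 went the other way, with 5 and 0 against 0 and 1. Prrx1, with 3 and 1 against 8 and 3, and Des, with 8 and 6 against 73 and 10, had most reads in wavefront replicate 1. The part of these shifts in the values of Tlx2, Tbx3 and Hand2 was not tested.

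Of 10 markers of sympathetic and sympathoadrenal cells, 3 were tested in edgeR and all 3 fell at the wavefront, Th, Dbh and Cartpt. Cartpt, a neuropeptide gene, had 19 and 18 trailing reads against 4 and 1 and fell by 2.45 ± 0.64 on the log2 scale (edgeR adjusted p = 0.0283). Chga and Chgb, proteins of secretory granules, had 7 and 15 against 1 and 0, and 6 and 9 against 1 and 0, too few to enter the main count test. With no filter on low counts Chga was called, at -3.79 ± 0.98 (edgeR adjusted p = 0.0175), and Chgb was not. Slc6a2, the noradrenaline transporter, and Slc18a1 each had 0, 1, 0 and 0 reads, and Pnmt had 0 in all 4 libraries. Again without ribosomal RNA, the list's 10 genes came to 903 and 1007 CPM in trailing cells and 53.1 and 60.9 at the wavefront, with Dbh giving most of the trailing sum. Of 10 sensory neuron markers 6 were at 0, and the list came to 75.0 and 109 against 73.0 and 60.9. Epithelial and endocrine markers, among which Insm1 has known roles, came to 20.7 and 33.3 CPM against 37.6 and 95.7 on that scale, with Neurog3 at 0. Mesothelial markers came to 7.76 and 9.07 against 13.3 and 34.8, endothelial to 44.0 and 84.7 against 64.1 and 113, leukocyte to 5.17 and 15.1 against 4.42 and 17.4, and erythroid to 5.17 and 0 against 2.21 and 965. Wavefront replicate 2 was thus the highest library for each of these 5 lists, on 11, 4, 13, 2 and 111 reads.

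RefSeq sequence of the 250 bases before the start site (GRCm38.p6) was at hand for Gata3, Phox2a, Hand2 and Isl1. It was not at hand for Tlx2, Tbx3, Tbx2 and Insm1. For Gata3 the stretch lies inside the GENCODE span of the gene given above, so it precedes a RefSeq start site within that span. The stretches of Hand2 and Gata3 are shown because the first was read in all 4 libraries and the second in trailing cells only; capitals mark matches to any of 4 motifs.
Hand2 (chr8:57320733-57320982, plus strand): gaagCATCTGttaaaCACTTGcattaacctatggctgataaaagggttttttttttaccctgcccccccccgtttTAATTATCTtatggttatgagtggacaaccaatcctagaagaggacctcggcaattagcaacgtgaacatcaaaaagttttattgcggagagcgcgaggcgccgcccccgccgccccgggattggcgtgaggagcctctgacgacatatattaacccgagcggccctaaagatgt
Gata3 (chr2:9878601-9878850, minus strand): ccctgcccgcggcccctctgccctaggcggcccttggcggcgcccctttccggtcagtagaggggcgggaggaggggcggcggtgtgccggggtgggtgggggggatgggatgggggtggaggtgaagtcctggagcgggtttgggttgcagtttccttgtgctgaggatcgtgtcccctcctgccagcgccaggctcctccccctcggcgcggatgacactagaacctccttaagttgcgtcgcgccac
The motifs were the E-box CANNTG, bound by basic helix-loop-helix factors, the homeodomain site TAATTA, the GATA site AGATAA and the T-box site AGGTGT, searched on both strands. Hand2 held 2 E-boxes, 1 TAATTA and 1 AGATAA on the other strand, the last 2 overlapping, and Isl1 held 1 E-box. Gata3 and Phox2a held none of the 4. Of 32851 RefSeq promoters of this length, 66.2% held an E-box, 4.84% TAATTA, 9.99% AGATAA and 11.8% AGGTGT. Guanine and cytosine made up 49.2% of the stretch of Hand2 and 70.0% of that of Gata3, against a median of 52.4%.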

How the data were processed

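RNA of sorted crest cells was read from 4 libraries. The submitters' processing notes list STAR 2.5.2b, featureCounts, DESeq2, FastQC 0.11.9 and bcl2fastq 2.17, with GRCm38 (mm10) as the build; the counting settings are not given there. The authors deposited CPM; divided by what 1 read is worth in its library, 100% of values came out whole within 0.01 reads, and those reads were used. The authors' deposited table also holds a mean signal per gene, log2 fold changes, a Wald score and an unadjusted p-value. Rows with a repeated identifier (428) were dropped.

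The tests were limma 3.58.1, with its trend option, on genes of mean CPM above 1 as log2(CPM + 1), and, on the recovered reads, edgeR 4.0.16 (TMM, filterByExpr with 10 reads), with DESeq2 1.42.0 and other scalings as alternatives, under R 4.3.3. Location was the only term. Scripts were tested on simulated data. All tests are two-sided; an exact permutation test of 2 against 2 libraries cannot go below 0.333. The 8 genes and all lists were chosen with earlier results of these data known, so lists are described and not tested. Some listed genes are not reported here and are left out of the lists' counts. Named genes were the 8, each list's called genes with up to 3 more of most reads, and the 3 profiles nearest to a called member; Slc18a2, Tubb3 and the cell type markers were named besides.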

Additional observations from a re-analysis of the deposited data

How the results depend on the processing

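Of the 8 genes, the count test called 1, and the number was 0 in DESeq2, 0 by the authors' p-values and 0 with scaling by Ret and Ednrb (chosen after seeing the data). Leaving out 1 library at a time gave 1 to 2. The number of all genes called, 100, became 14 in DESeq2, 13 by the authors' p-values, 4 with the crest gene scaling and 40 to 143 with 1 library left out (40 without trailing replicate 2, 44 without trailing replicate 1). Scaling by library size alone called 73, of which 9 were higher and 64 lower, against 23 and 77. In limma the number of genes called, 0, became 3 with a pseudocount of 5, 5 with no filter, 36 for mean CPM above 10 and 9 with DESeq2 size factors, and stayed at 0 to 0 with 1 library left out; of the 8 genes, Tlx2 was called for mean CPM above 10 (1 gene). With the replicate number as a block, edgeR called 61 genes and limma 52, and of the 8 genes 1 each, Tlx2 (edgeR adjusted p = 0.00727). Whether same-numbered libraries share an embryo, litter or day is not stated. The deviations of the replicate 1 libraries from their group means had a correlation of 0.0713. With 2 libraries a group that value cannot settle whether they were paired. Without wavefront replicate 2 the change of Tbx3 turned to 0.16 in edgeR and 0.20 in limma, the other ends of these ranges being -1.70 and -2.34, both without wavefront replicate 1. With no filter on low counts all 8 genes were tested and 1 was called. A group left with 1 library was assumed to vary like the other. Depth limits Gata3, Isl1, Insm1 and Phox2a, with 13, 10, 10 and 1 reads in all.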
